A study of Mus musculus with 12 samples.

Results

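The miR-26 family of the mouse has 2 mature members on the 5′ arms of its hairpins, mmu-miR-26a and mmu-miR-26b (miR-26a and miR-26b in what follows). Both were taken from the miRNA-Seq count lists by their exact names, without the star forms, so that they are 2 of the 469 miRNAs listed in any library. The libraries were made from C57BL/6J mice of 8 weeks, for which the labels name no drug and no genetic change, from frontal cortex (FCx), cut from a brain slice labelled Bregma -1.5 to -3.5 (whether the sign is as intended could not be checked here), and from the entire hippocampus (HP). Tissue of 3 mice was pooled for each region and RNA was then extracted, which gave a single RNA pool per region. From each RNA pool 3 libraries were made, whose 5′ adaptors carried index 3, index 7 or index 11. The index is a tag of 6 nt next to the ligation site of the miRNA. Sequencing took place once in a separate lane for each library (individual lane) and once with the 3 libraries of a region mixed in 1 lane (pooled lane), and the counts of both runs were summed (n = 3 libraries per region). The spread between libraries of a region is therefore technical, contains any effect of the index and says nothing about how animals differ. Libraries with indexes 3, 7 and 11 held 391410, 1461732 and 652449 miRNA counts in FCx and 3206221, 4956117 and 4053518 in HP.

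MiRNAs repress messenger RNAs that pair with their seed, the bases 2 to 8 from the 5′ end. The genes of the miR-26 family lie in introns of the Ctdsp genes, which code for small phosphatases of the C-terminal domain of RNA polymerase II. These phosphatases act with the repressor REST, which keeps neuronal genes silent outside neurons, and Ctdsp2 is itself a known target of miR-26b. Another known target of the family is Ezh2, a histone methyltransferase. The family is widely expressed, the brain included. Messenger RNAs of the hosts and targets were not measured here.

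The mature sequences are shown because the counts of the members can be told apart only where these differ. They are from RefSeq (GRCm38.p6), with the seed in capitals.
miR-26a-5p: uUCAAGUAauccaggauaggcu
miR-26b-5p: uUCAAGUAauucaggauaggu
Both members have the same seed, and no other name among the 1679 mature mouse miRNAs of that table carries it. MiR-26a has 22 nt and miR-26b 21 nt. Compared over 22 bases, with the base that follows miR-26b in its hairpin added, the members differ at 2 positions, which are in capitals.
miR-26a, 22 bases: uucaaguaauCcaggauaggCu
miR-26b hairpin, 22 bases: uucaaguaauUcaggauaggUu
Counted from the 5′ end of miR-26a, these are C11U and C21U. The authors allowed up to 2 mismatches in the alignment, so a read of 1 member can fall within the limit for the other.

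MiR-26a is made from 2 hairpins and miR-26b from 1, and the hairpins are shown to mark where the alignments described further on lie. Capitals mark the mature 5′ arm and the 3′ arm, the star strand that is usually degraded.
Mir26a-1: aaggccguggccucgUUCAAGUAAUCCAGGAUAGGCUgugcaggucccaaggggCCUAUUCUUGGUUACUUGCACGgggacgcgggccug
Mir26a-2: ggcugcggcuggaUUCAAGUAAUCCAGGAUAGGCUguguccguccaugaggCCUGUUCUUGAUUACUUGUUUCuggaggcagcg
Mir26b: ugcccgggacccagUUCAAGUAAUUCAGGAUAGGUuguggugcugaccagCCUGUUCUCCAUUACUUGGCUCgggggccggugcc
In NCBIM37, the build of the deposited alignments, Mir26a-1 is at chr9:118940914-118941003 on the plus strand, in intron 4 or 5 of Ctdspl, depending on the transcript. Mir26a-2 is at chr10:126432586-126432669 on the plus strand, in intron 5 of Ctdsp2, and an exon of a shorter annotated transcript begins at its last base. Mir26b is at chr1:74440884-74440968 on the plus strand, in intron 4 of Ctdsp1. Each host gene is on the strand of its hairpin. The sequence of miR-26a occurs in the genome only at the 2 hairpins of Mir26a, and that of miR-26b only at Mir26b.

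MiR-26a (mmu-miR-26a) was among the abundant miRNAs of both regions and was higher in HP within each index. Levels are in CPM, that is, counts per 1000000 miRNA counts of the library. With indexes 3, 7 and 11, miR-26a had 13597, 8510 and 6774 CPM in FCx (9627 ± 3546, SD, n = 3 libraries) and 20419, 16197 and 9088 CPM in HP (15235 ± 5727). The HP library was thus 1.502, 1.90 and 1.34 times the FCx library of the same index. The groups overlap, since HP with index 11 was below FCx with index 3. These values rest on 5322, 12440 and 4420 counts in FCx and on 65469, 80273 and 36838 counts in HP. In the shallowest library, FCx with index 3, the 95% binomial interval (Wilson) of the level was 13239 to 13965 CPM, so counting error was small beside the difference between indexes. The reads carry no molecular identifiers, and intervals cover counting error only.

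MiR-26b (mmu-miR-26b) was less abundant, and its difference between the regions was small in the libraries with index 7. It had 3096, 3770 and 1127 CPM in FCx with indexes 3, 7 and 11 (2664 ± 1374, SD, n = 3 libraries) and 5075, 4164 and 1732 CPM in HP (3657 ± 1728). The HP library was 1.64, 1.10 and 1.54 times the FCx library of the same index. Again every HP library was above the FCx library of its index, while the groups overlapped across indexes. With index 7 this step was no larger than the gap between single runs. There the individual lane of FCx, at 4083 CPM, was above the pooled lane of HP, at 3906 CPM. Between runs of the same kind HP was higher, with 4309 against 4083 CPM (individual lanes) and 3906 against 3372 CPM (pooled lanes). A higher CPM in HP within each of the 3 indexes was found for 80 of the 431 miRNAs tested (18.6%), so this order was shared by many miRNAs.

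**Figure D1:**
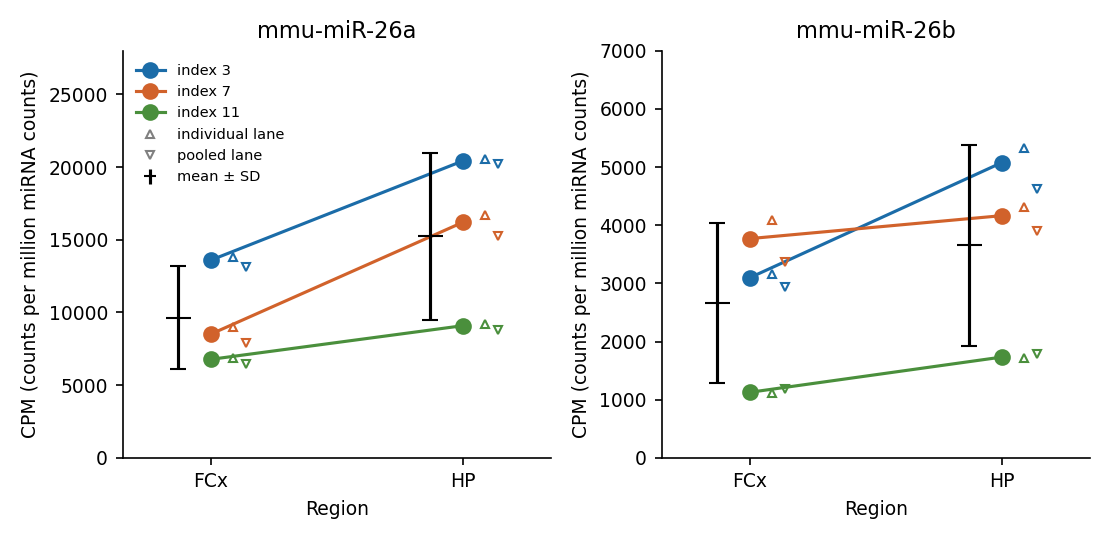
Level of miR-26a (left) and miR-26b (right) in CPM in FCx and HP. Filled circles are libraries with both runs summed, lines join libraries of the same index, open triangles are the single runs, and black bars are the mean ± SD of 3 libraries. Every line rises from FCx to HP, and the line of miR-26b with index 7 is nearly flat, from 3770 to 4164 CPM.

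The level differed between the runs of a library, in some libraries by more than counting error. The pooled lane had 0.882 to 0.983 times the CPM of the individual lane for miR-26a and 0.826 to 1.08 times for miR-26b over the 6 libraries. For miR-26b it was the higher run only with index 11, in both regions. The largest gap was that of miR-26b in FCx with index 7. Its individual lane gave 4083 CPM (interval for counting error 3947 to 4223), against 3372 CPM (3233 to 3516) for the pooled lane. The cause of these gaps was not tested. Together the members took up 1.67%, 1.23% and 0.790% of the counts in FCx with indexes 3, 7 and 11 (1.23% ± 0.440, SD, n = 3 libraries). In HP they took up 2.55%, 2.04% and 1.08% (1.89% ± 0.745).

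In the order of mean CPM, miR-26a held place 15 in FCx and place 13 in HP. Its neighbours were miR-137 (10515 ± 18137 CPM) and miR-127 (8389 ± 3379 CPM) in FCx, and miR-137 (16745 ± 28851 CPM) and miR-99a (13569 ± 16542 CPM) in HP. MiR-26b held place 30 in FCx, between miR-433 (2773 ± 1109 CPM) and miR-101a (2245 ± 1972 CPM). In HP it held place 22, between miR-29c (4028 ± 4023 CPM) and miR-132 (3488 ± 3131 CPM). Each of these neighbours differed from the member beside it by less than the SD of the libraries. The level of miR-137, a miRNA of neuronal differentiation, came almost wholly from the libraries with index 3, whereas miR-26a was present with each index.

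Whether the regions differ was tested with the quasi-likelihood test of edgeR, after TMM normalization and with Benjamini-Hochberg adjustment, over the 431 miRNAs whose counts summed to 2 or more in at least 1 region. FCx over HP gave a log2 fold change of -1.07 for miR-26a (standard error 0.60, edgeR adjusted p = 0.992) and -0.75 for miR-26b (standard error 0.74, adjusted p = 0.992). Neither difference passed this test, which sets FCx and HP libraries of different indexes against each other. It called 2 of the 431 miRNAs (0.464%), miR-200c and miR-183, both higher in FCx and named here after their values were seen. An unadjusted p under 0.05 was reached by 17 miRNAs, and DESeq2's Wald test called 12.

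When the index was added as a block, so that libraries of the same index are compared, both members passed the test. Since each region is 1 RNA pool, this and the other tests between the regions compare 2 pools against the technical spread of their libraries, and not the regions over animals. The log2 fold change was -1.07 for miR-26a (standard error 0.31, edgeR adjusted p = 0.00595) and -0.92 for miR-26b (standard error 0.30, adjusted p = 0.0171). In this fit 55 of the 431 miRNAs (12.8%) were called higher in HP and 22 (5.10%) higher in FCx. TMM normalization moved the median log2 fold change of all 431 miRNAs to -0.38. Relative to this median, miR-26a was at -0.68 and miR-26b at -0.53. With library totals in place of TMM, where the median was -0.01, the blocked log2 fold change was -0.65 for miR-26a (standard error 0.21, edgeR adjusted p = 0.0225) and -0.49 for miR-26b (standard error 0.25, adjusted p = 0.238). That fit called 20 of the 431 miRNAs (4.64%) higher in HP and 36 (8.35%) higher in FCx. The call of miR-26a therefore did not depend on this scaling and that of miR-26b did. The blocked calls were lost without index 3 or index 11 and held without index 7, while the direction stayed the same. Without index 3 the blocked log2 fold change was -0.91 for miR-26a (standard error 0.52, edgeR adjusted p = 0.330) and -0.62 for miR-26b (standard error 0.48, adjusted p = 0.572). Without index 11 it was -0.75 (standard error 0.37, edgeR adjusted p = 0.211) and -0.42 (standard error 0.37, adjusted p = 0.646). Without index 7 it was -0.90 (standard error 0.15, edgeR adjusted p = 0.00980) and -1.06 (standard error 0.18, adjusted p = 0.00958). For miR-26a the fold change was thus nearly the same without index 3 as without index 7, and the standard error differed. These fits rest on fewer libraries, so their errors are themselves poorly known.

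**Figure D2:**
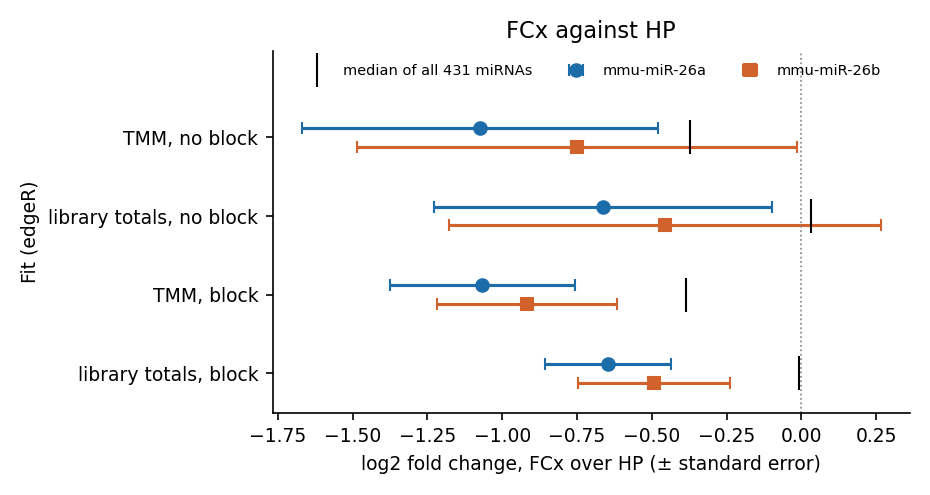
Log2 fold change of FCx over HP (horizontal axis, bars are ± 1 standard error) of miR-26a and miR-26b in 4 edgeR fits, with TMM or library totals and with or without the index as a block. Vertical marks are the median of all 431 miRNAs, and all 8 points lie to the left of 0 and of their median.

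Between the libraries with different indexes, both members had a smaller range of CPM than most miRNAs. Each index is also a separate library preparation, and the 2 cannot be told apart. MiR-26a was highest with index 3 and lowest with index 11 in both regions, with a range of 2.01-fold in FCx and 2.25-fold in HP. MiR-26b was lowest with index 11 in both regions, and highest with index 7 in FCx and with index 3 in HP, with a range of 3.35-fold and 2.93-fold. This order in FCx holds for the counts only. By the alignments at the Mir26b hairpin per 1000000 miRNA counts, a measure added after seeing the data, index 3 was highest in both regions, with 2356, 1855 and 834 for indexes 3, 7 and 11 in FCx, and 3847, 2159 and 1338 in HP. Over the 139 miRNAs that averaged 100 CPM or more the median range was 4.32-fold in FCx and 3.85-fold in HP. A larger range than that of miR-26a was found for 82.7% of them in FCx and 75.5% in HP, and a larger range than that of miR-26b for 56.1% and 64.0%. Tested over both regions with the region in the model (the same edgeR test and adjustment), miR-26b differed between indexes, with a log2 range of 1.41 (adjusted p = 0.00139), and miR-26a had a log2 range of 0.59 (adjusted p = 0.382). This test called 264 of the 431 miRNAs (61.3%). With library totals, which called 262 of 431 (60.8%), miR-26a passed as well, with a log2 range of 1.08 (edgeR adjusted p = 0.000407). Without FCx index 11, the adjusted p of miR-26b in the edgeR test was 0.488.

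MiR-26a was the more abundant member in all 6 libraries, by the smallest factor in FCx with index 7. From the counts, the ratio was 4.39, 2.26 and 6.01 in FCx with indexes 3, 7 and 11 (4.22 ± 1.88, SD, n = 3 libraries). In HP it was 4.02, 3.89 and 5.25 (4.39 ± 0.748). The means of the regions differed by less than either SD. The value of 2.26 for FCx with index 7 had a 95% interval of 2.19 to 2.33, and the single runs gave 2.20 (individual lane) and 2.35 (pooled lane). It was thus repeated in both runs of that library, which share 1 preparation and carry no spread between preparations. HP with the same index had an interval of 3.83 to 3.95, and with 1 library each this difference has no replicate check. In both regions the ratio was highest with index 11. With the counts of a region summed first, it was 2.97 in FCx and 4.16 in HP, since index 7 held most counts of FCx.

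The genome alignments, deposited as a separate file for each lane, give a second view of the members. At the 5′ arm, Mir26a-1 had 2549, 5092 and 2120 alignments in FCx with indexes 3, 7 and 11, and 31149, 35753 and 17766 in HP. Mir26a-2 had 2508, 5212 and 2108 alignments in FCx and 30945, 36225 and 17638 in HP. Both hairpins hold the same mature sequence, and 1 alignment per read was deposited, so this near-equal division says nothing about how much each gene makes. Mir26b had 922, 2711 and 544 alignments in FCx and 12333, 10701 and 5424 in HP.

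From the alignments, the ratio of miR-26a to miR-26b was 5.48, 3.80 and 7.77 in FCx with indexes 3, 7 and 11 and 5.03, 6.73 and 6.53 in HP. It was higher than the ratio of the counts in each of the 6 libraries, and FCx with index 7 was again the lowest. The 2 ratios did not order the HP libraries in the same way, since HP with index 7 was lowest by counts and highest by alignments.

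**Figure D3:**
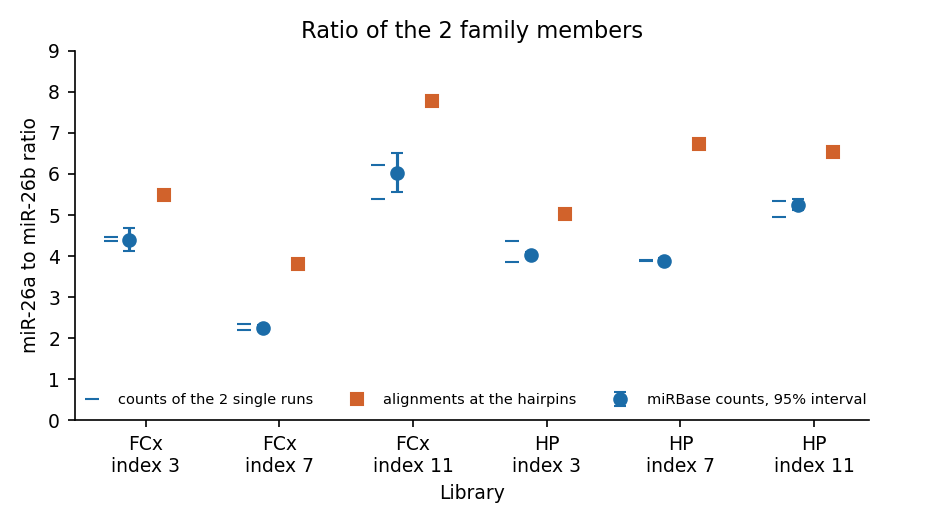
Ratio of miR-26a to miR-26b (vertical axis) in each library. Blue circles are from the miRBase counts with 95% intervals for counting error, blue dashes are the single runs and orange squares are from alignments at the hairpins. FCx with index 7 is lowest in both, at 2.26 and 3.80, and each square is above its circle.

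Relative to its counts, miR-26b had fewer alignments at the hairpins than miR-26a. The alignments at the hairpins made up 95.02%, 82.8% and 95.7% of the counts of miR-26a in FCx with indexes 3, 7 and 11, and 94.8%, 89.7% and 96.1% in HP. For miR-26b they made up 76.1%, 49.2% and 74.0% in FCx and 75.8%, 51.9% and 77.3% in HP. In each library the share was lower for miR-26b than for miR-26a, and index 7 had the lowest share of both members in both regions. The individual and the pooled lane with index 7 gave 49.2% and 49.3% for miR-26b in FCx and 52.2% and 51.3% in HP. Single reads were not matched between the counts and the alignments, and what makes up the difference was not tested. The level of miR-26b in the libraries with index 7 is therefore less certain than in the others.

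**Figure D4:**
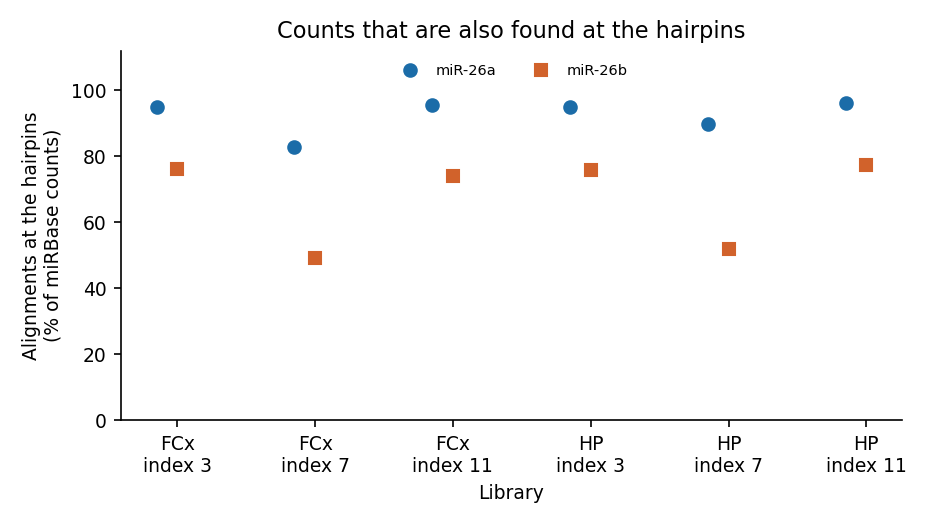
Alignments at the mature 5′ arms as a percentage of the miRBase counts (vertical axis) for miR-26a and miR-26b in each library, with both runs summed. The points of miR-26b lie between 49.2% and 77.3%, below those of miR-26a, and both members are lowest with index 7.

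The 5′ end of a miRNA sets its seed, and nearly all alignments began at the annotated first base. The share was 96.4% to 99.9% over the 3 hairpins and 6 libraries. Starts 1 base earlier were seen mainly with index 7 at the hairpins of miR-26a, with 1.96% at Mir26a-1 and 2.65% at Mir26a-2 in FCx and 1.93% and 2.08% in HP. With indexes 3 and 11 this share was at most 0.196% at these hairpins. At Mir26b it was 0.111% and 0.252% with index 7 in FCx and HP, and the highest share, 0.551%, was in HP with index 3. Starts 1 base later made up at most 0.887% at each hairpin.

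**Figure D5:**
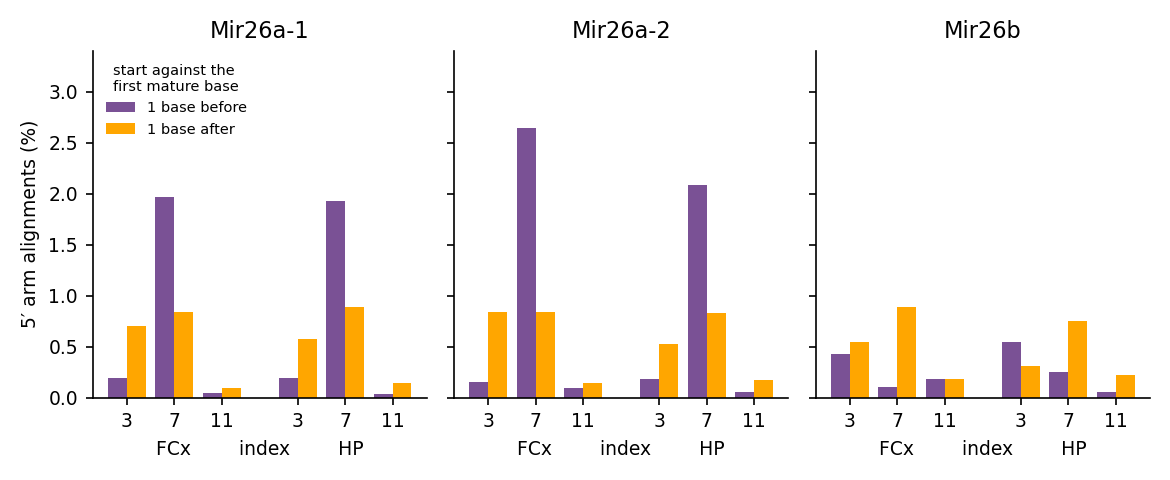
Share of the 5′ arm alignments (vertical axis, percent) that began 1 base before or 1 base after the first base of the mature miRNA, for each hairpin and library (index 3, 7 and 11 in FCx, then in HP). Starts 1 base before are most frequent with index 7 at Mir26a-1 and Mir26a-2, at 1.93% to 2.65%.

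The 3′ ends could not be compared in this way. Alignments of 22 nt made up 64.5% to 91.1% of all alignments in a lane file, and alignments of 18 to 21 nt were rare outside index 11. Within this limit, alignments of 23 nt were more frequent with index 3 at the miR-26a hairpins, at 6.36% (Mir26a-1) and 6.70% (Mir26a-2) in FCx and 6.36% and 6.54% in HP, than with the other indexes, where they were at most 1.27%.

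Star strands of the family were at the limit of detection. The count lists name only miR-26b*, with 0, 1 and 0 counts in FCx with indexes 3, 7 and 11 and 0, 1 and 2 counts in HP. No direction can be read from these counts. A count of 0 allows 3 counts, which is 7.66 CPM in FCx with index 3, the shallowest library, and 0.936 CPM in HP with index 3.

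The miRNAs whose levels varied most like those of the members over the 6 libraries were found by Pearson's r of log2(CPM + 1) among the other miRNAs that averaged 100 CPM or more, as a description over libraries that share RNA pools and indexes. For miR-26a these were miR-7a (r = 0.988), miR-219 (0.896) and miR-7b (0.886). MiR-219 is enriched in oligodendrocytes, and it had 1484, 340 and 507 CPM with indexes 3, 7 and 11 in FCx, against 1754, 1539 and 383 CPM in HP. For miR-26b they were miR-21 (r = 0.987), miR-7b (0.980) and let-7e (0.955). The members correlated with each other with r = 0.815, so that miR-26b held place 8 for miR-26a, and miR-26a held place 24 for miR-26b.

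MiRNAs that act on the same circuits were examined next. Of 5 miRNAs linked to REST and the Ctdsp phosphatases, 2 were called higher in FCx in the blocked edgeR fit, beside 5.10% of all miRNAs. These were miR-132 with a log2 fold change of 1.41 (adjusted p = 0.000102) and miR-212 with 1.06 (adjusted p = 0.00233). Both stayed higher in FCx with library totals. They belong to the same genomic cluster, so the 2 calls are not independent. The authors reported this cluster as higher in FCx by miRNA-Seq and by microarrays. MiR-9, which represses REST, was called higher in HP (-0.89, adjusted p = 0.0348), but not with library totals (-0.47, adjusted p = 0.0736). MiR-124, a neuronal miRNA that represses Ctdsp messenger RNAs, had a log2 fold change of 0.30 (edgeR adjusted p = 0.610), and with library totals it was called higher in FCx (0.72, adjusted p = 0.00304). MiR-9* had 0.09 in the blocked fit (edgeR adjusted p = 0.883). The median of the 5 was 0.30, beside -0.38 over all miRNAs, and 0.72 with library totals, beside -0.01 over all miRNAs.

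Of 3 other miRNAs known to repress Ezh2, miR-101b was called higher in HP (-0.93, edgeR adjusted p = 0.0115), though not with library totals (-0.51, adjusted p = 0.295). This is 1 of 3, beside 12.8% of all miRNAs called higher in HP in that fit. MiR-101a (-0.76) and miR-138 (-0.74) had adjusted p of 0.0606 and 0.0569 in the blocked edgeR fit.

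The members were also set beside other families of near-identical miRNAs. In the blocked edgeR fit, 4 of 9 let-7 family members were called higher in HP, beside 12.8% of all miRNAs. An example was let-7f, at -1.30 (edgeR adjusted p = 0.00176). The median log2 fold change of the 9 was -0.81, beside -0.38 over all miRNAs. With library totals this median was -0.39, beside -0.01 over all miRNAs. With library totals 4 of 9 were called higher in HP, beside 4.64% of all miRNAs, but let-7i was no longer called (adjusted p = 0.0267 with TMM and 0.225 with library totals, edgeR) and let-7c was (0.101 and 0.0382). Of 5 miR-30 members 1 was called higher in HP with TMM, miR-30b (-1.08, edgeR adjusted p = 0.00689). With library totals it was not called (-0.63, adjusted p = 0.248), and miR-30a (0.79, adjusted p = 0.0136) and miR-30d (0.91, adjusted p = 0.00510) were called higher in FCx, beside 8.35% of all miRNAs. Of 3 miR-29 members, 1 was called higher in FCx with library totals, and in the blocked TMM fit the lowest adjusted p among them was 0.596 (edgeR). All 5 miR-30 and all 3 miR-29 members differed between indexes, and 5 of 9 let-7 members did, beside 61.3% of all miRNAs.

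Markers of cell types were examined, since in bulk tissue fewer cells of a type and less RNA per cell cannot be told apart. The 5 neuronal miRNAs summed to 258647, 273413 and 264246 CPM in FCx with indexes 3, 7 and 11 and to 107402, 170128 and 155546 CPM in HP, with miR-128 as the most abundant. The groups do not overlap in this sum, which miR-128 sets apart, with 177013 to 208464 CPM in FCx against 63974 to 110495 CPM in HP. The other 4 neuronal miRNAs overlap between the groups, at 62638, 96401 and 55782 CPM in FCx and 43427, 99394 and 45051 CPM in HP, and with index 7 their sum was higher in HP. In the blocked edgeR fit 1 of the 5 neuronal miRNAs was called higher in FCx, beside 5.10% of all miRNAs. Another was called higher in HP, beside 12.8%. With library totals 3 of the 5 were called higher in FCx, beside 8.35% of all miRNAs, and 0 higher in HP. MiR-128 had a log2 fold change of 0.86 with TMM (edgeR adjusted p = 0.0631) and 1.29 with library totals (edgeR adjusted p = 3.80e-15). The neuronal markers of brain tissue were present in each library. The 2 oligodendrocyte miRNAs, miR-219 and miR-338-3p, summed to a mean of 1048 CPM in FCx, against 1529 CPM in HP. In the blocked edgeR fit 1 of these 2 was called higher in HP, beside 12.8% of all miRNAs, namely miR-219 (-1.09, adjusted p = 0.00287), though not with library totals (-0.65, adjusted p = 0.185). The 5 miRNAs of choroid plexus and ependyma, led by miR-34c, summed to 102, 62.3 and 55.2 CPM in FCx. In HP they summed to 250, 265 and 90.0 CPM, and 3 of the 5 were called higher in HP in the blocked edgeR fit, beside 12.8% of all miRNAs. Of this list, miR-211 was at 0 in 1 FCx library and miR-449a at 0 in 2 FCx libraries and 1 HP library. With library totals 1 of the 5 was called, beside 4.64% of all miRNAs. Both sums had the higher mean in HP, as the family did, although with index 11 the oligodendrocyte sum was 529 CPM in FCx against 406 CPM in HP. Their part in the level of miR-26a and miR-26b was not tested.

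Markers of other tissues were low, apart from the muscle miRNA miR-1 with index 7. Those of leukocytes and microglia, led by miR-150, summed to a mean of 26.3 CPM in FCx, against 25.3 CPM in HP, and those of blood, led by miR-451, to 105 and 94.3 CPM. The liver miRNA miR-122 was at means of 7.05 and 9.73 CPM. The 4 muscle miRNAs, led by miR-1, summed with index 7 to 1079 CPM in FCx and to 816 CPM in HP, and to 71.5 to 123 CPM with the other indexes.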

How the data were processed

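MiRNA-Seq was done on 6 libraries, 3 from each region's RNA pool, in 12 lane files. As deposited by the authors, the counts are reads per mature miRBase 11 entry, in whole numbers and without normalization, after index sorting, trimming and alignment with Bowtie with up to 2 mismatches. The genome alignments were deposited with start, end and strand in NCBIM37. The alignment score in the deposited files holds a single value per file and was not used.

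Counts of both runs of a library were summed and divided by the library total (CPM). Tests used edgeR 4.0.16 (quasi-likelihood, TMM, Benjamini-Hochberg) and DESeq2 1.42.0 in R 4.3.3 and were tested on simulated data. Python 3.11.15 was used for other values, with scipy 1.17.1, numpy 2.4.6 and pandas 2.3.3, and matplotlib 3.10.9 for plots. The 95% intervals cover counting error only. Depth was 391410 to 4956117 counts per library. Alignments within 5 bases of an arm's first base and on the hairpin's strand were assigned to that arm.

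The index was taken to pair the libraries, since the labels give it as shared and since libraries of the same index correlated positively. For log2 CPM centred within regions, r was 0.772, 0.854 and 0.836 between libraries of the same index. Between libraries of different indexes it was -0.597 to -0.245. Centring within regions makes these values negative on average once the former are positive, so they add no support for the pairing. The members, lists and markers were chosen with earlier results of these data known. Named miRNAs are both members, their star form, up to 5 of each list that averaged 100 CPM or were called, the 3 most alike in pattern and the neighbours in rank. MiR-211 and miR-449a (markers at 0 in some libraries), let-7i (a call lost with library totals) and the called miR-200c and miR-183 were named outside this rule, after their values were seen. Alternatives covered block, scaling, test, filter, runs and libraries left out. The result of 1 list is not reported here.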

Additional observations from a re-analysis of the deposited data

Results flagged for a closer look

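Alignments were seen at the 3′ arms of the miR-26a hairpins, whose star strands are not named in the count lists. Summed over the 6 libraries there were 6 at Mir26a-1 (0 in FCx and 6 in HP) and 7 at Mir26a-2 (3 in FCx and 4 in HP), above the 3 counts that a count of 0 allows over that sum, beside 94429 and 94636 at the 5′ arms. In single libraries the number was above 3 only in HP with index 7 at Mir26a-1, where it was 4. HP was sequenced more deeply, so no direction between the regions can be read from these numbers.

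The ratio of miR-26a to miR-26b in HP was 1.72 times that of FCx with index 7, whereas it was 0.916 and 0.872 times that of FCx with indexes 3 and 11. The difference between the indexes was not tested, since each index has 1 library per region.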

How the results depend on the processing

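MiR-26a and miR-26b were lower in FCx in every fit without a block (14 alternatives each), and none of these fits called either (adjusted p from 0.975 to 1.0), with edgeR, its exact test and DESeq2's Wald test. With the replicate block, miR-26a was at -1.07 (TMM) and -0.65 (library totals). In blocked fits chosen after seeing the data it was at -0.79 with DESeq2's Wald test (adjusted p = 0.00349) and with DESeq2's size factors in edgeR (adjusted p = 0.0328), -0.95 with individual lanes and -1.12 with pooled lanes, all of them called. MiR-26b was called with the replicate block at -0.92 (TMM) and -0.81 (individual lanes), and missed the threshold with DESeq2's Wald test, DESeq2's size factors, pooled lanes and library totals. Leaving out the index pair of replicate 2 (index 7) gave -0.90 for miR-26a and -1.06 for miR-26b, both called. Leaving out single libraries without the block moved miR-26a between -1.04 and -0.71 and miR-26b between -1.03 and -0.21.

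The number of miRNAs called between the regions was 12 with DESeq2's Wald test, 8 with no filter, 0 with pooled lanes (18 at an unadjusted p under 0.05 in edgeR), 14 when lane files entered an exact test and 0 to 7 without single libraries (2 without FCx index 3 or 7, 7 without FCx index 11 or HP index 7, and 0 without HP index 3 or 11, where 14 and 17 had an unadjusted p under 0.05 in edgeR). With the replicate block it was 77 (TMM), 56 (library totals), 41 (DESeq2's Wald test), 68 (individual lanes), 46 (pooled lanes), 59 (DESeq2's size factors) and 30, 41 and 51 without index 3, 7 and 11. Of the index tests, that of miR-26a passed with library totals (1.08). Without single libraries, a choice made after seeing the data, its log2 range was 0.33 to 0.59 and index 7 became highest without HP index 3 (0.59). That of miR-26b was 0.71 to 1.64, and index 3 became highest without FCx index 7 (0.83). The causes were not tested. CPM, ratios and start shares moved by less than 1 SD with single runs, and also with summed counts (CPM and ratio of the counts) or alignments of at least 20 nt (alignment ratio and start shares). This SD is the spread between indexes and is a wide limit. Within it, the ratio of the counts in FCx went from 4.22 to 2.97 with summed counts. FCx rests on fewer counts than HP, and star strands were too rare at this depth for any comparison.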
